A study of Mus musculus with 20 samples.

Results

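The 10 genes described here encode the MHC class I presentation pathway, and they were taken by symbol from a single-cell RNA-seq count table of 16003 genes made from mouse spinal cord. They are the classical heavy chains H2-K1 and H2-D1, the nonclassical heavy chain H2-T23, the light chain B2m, the peptide transporter subunits Tap1 and Tap2, the loading factor Tapbp, the immunoproteasome subunits Psmb8 and Psmb9, and the transactivator Nlrc5. All 10 were in the table and all 10 had at least 1 unique molecular identifier (UMI, a tag that counts each captured RNA molecule once). Their totals over the whole table ran from 585 UMIs for Nlrc5 to 167430 UMIs for B2m.

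The study asked how microglia shape repair after spinal cord injury (SCI), and each of its 6 single-cell libraries pooled 3 to 4 mice. All mice were C57BL/6J females bought at 8 to 10 weeks of age, with no transgene or deletion in any group. The sham vehicle and sham PLX5622 groups had a laminectomy without contusion, and their labels give both 7 and 28 d after surgery for 1 library. The 7 dpi vehicle, 7 dpi PLX5622, 28 dpi vehicle and 28 dpi PLX5622 groups had a contusion at spinal level T9, with cells taken at 7 or 28 days post-injury (dpi). PLX5622 is a CSF1R antagonist that depletes microglia. It was given at 1200 mg per kg of chow from 2 weeks before surgery to the end point, and vehicle mice had the chow without it. The methods of the study also list a lower figure in ppm for the same chow. The cords were not perfused before they were dissociated, so that blood cells could remain. With 1 library per condition no difference between conditions has a replicate check, a condition cannot be told apart from its library or from its mice, and no test or p-value is given.

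MHC class I molecules carry short peptides from inside a cell to its surface, where CD8 T cells read them. The proteasome cuts the peptides, the Tap1 and Tap2 transporter moves them into the endoplasmic reticulum, Tapbp (tapasin) helps load them, and the heavy chain reaches the surface only together with B2m. Interferon raises the pathway in most cells, partly through Nlrc5 and partly through replacement of the standard proteasome subunits by Psmb8 and Psmb9, and resting neural cells are known for low levels of it.

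In the GENCODE annotation of GRCm38, 8 of the 10 genes lie on mouse chromosome 17, in the order Tapbp (chr17:33915899-33929292), H2-K1 (chr17:33996017-34000347), Psmb9 (chr17:34181987-34187764), Tap1 (chr17:34187553-34197225), Psmb8 (chr17:34197721-34201454), Tap2 (chr17:34203527-34216321), H2-D1 (chr17:35262730-35267499) and H2-T23 (chr17:36029773-36032855). B2m is at chr2:122147686-122153083 and Nlrc5 at chr8:94434356-94527272. In the RefSeq annotation used for the promoter windows below, Tap1 and Psmb9 start 226 bases apart on opposite strands. In the GENCODE coordinates given here, the start regions of Tap1 and Psmb9 overlap.

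The promoter windows of 5 members are shown, the heavy chains, the light chain and a transporter subunit, because they hold most of the known control motifs found among the 10 genes. Each window runs from 250 bases before to 50 bases after the gene start (RefSeq, GRCm38.p6, 5′ to 3′ on the strand of the gene). RefSeq held 2 windows for H2-K1, and the first listed is shown. Capitals mark matches on either strand to motifs of interferon, NF-κB and class I control: the κB site GGGATTCCC, 2 spacings of the interferon-stimulated response element core (ISRE; GAANNGAAA and GAAANNGAA), the X2 box TGACG and the Y box ATTGG.
H2-K1 (chr17:34000298-34000597, minus strand): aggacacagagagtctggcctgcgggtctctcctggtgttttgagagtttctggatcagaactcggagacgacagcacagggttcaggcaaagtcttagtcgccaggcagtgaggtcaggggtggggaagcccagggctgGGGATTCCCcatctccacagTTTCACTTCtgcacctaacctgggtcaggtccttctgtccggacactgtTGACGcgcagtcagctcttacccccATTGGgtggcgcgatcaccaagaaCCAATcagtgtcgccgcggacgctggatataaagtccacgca
H2-D1 (chr17:35262844-35263143, plus strand): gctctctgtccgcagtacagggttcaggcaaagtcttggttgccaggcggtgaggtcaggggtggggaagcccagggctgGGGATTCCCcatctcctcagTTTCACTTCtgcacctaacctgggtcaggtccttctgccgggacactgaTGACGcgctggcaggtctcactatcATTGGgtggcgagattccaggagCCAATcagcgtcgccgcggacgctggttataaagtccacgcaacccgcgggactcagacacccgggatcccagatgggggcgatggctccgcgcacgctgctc
B2m (chr2:122147437-122147736, plus strand): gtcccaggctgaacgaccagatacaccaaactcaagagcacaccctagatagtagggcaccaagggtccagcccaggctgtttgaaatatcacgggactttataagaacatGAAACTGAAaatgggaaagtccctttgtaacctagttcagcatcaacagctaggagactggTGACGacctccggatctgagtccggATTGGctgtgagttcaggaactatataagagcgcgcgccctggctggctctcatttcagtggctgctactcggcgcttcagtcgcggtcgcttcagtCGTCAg
H2-T23 (chr17:36032652-36032951, minus strand): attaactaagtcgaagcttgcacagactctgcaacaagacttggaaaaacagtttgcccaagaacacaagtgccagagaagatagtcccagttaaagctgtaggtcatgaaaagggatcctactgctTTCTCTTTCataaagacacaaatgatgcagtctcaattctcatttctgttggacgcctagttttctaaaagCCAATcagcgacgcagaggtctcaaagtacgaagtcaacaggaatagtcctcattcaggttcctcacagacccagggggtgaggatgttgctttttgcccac
Tap1 (chr17:34187306-34187605, plus strand): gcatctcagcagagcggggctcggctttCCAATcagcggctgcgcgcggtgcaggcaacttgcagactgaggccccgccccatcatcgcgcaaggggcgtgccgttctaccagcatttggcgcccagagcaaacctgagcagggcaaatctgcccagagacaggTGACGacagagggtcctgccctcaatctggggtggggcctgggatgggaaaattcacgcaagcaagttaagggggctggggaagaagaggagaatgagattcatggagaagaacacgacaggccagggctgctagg

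RefSeq held such a window for 8 of the 10 members; Tap2 and Nlrc5 had none. The κB site was found in 2 of the 8, H2-K1 and H2-D1, against 0.353% of 32851 windows of the same length. In those genes an ISRE core of the first spacing followed it 20 bases downstream, at -90 and -150 from the start, and that spacing was held by 7.52% of all windows. The position in H2-K1 depends on which of its 2 annotated windows is taken. The second spacing, held by 8.56% of all windows, was found in B2m at -139 and in H2-T23 at -123. The X2 box was in 5 of 8 member windows against 20.8% of all, and the Y box in 7 of 8 against 37.4%. No motif overlapped another, the Psmb8 window held none of them, and the Tap1 and Psmb9 windows share 275 bases. A match describes the letters only and is not a measured binding site.

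The count table held 21016 cells in 14 clusters and 81305944 UMIs. Libraries ran from 492 cells and 2606149 UMIs (sham PLX5622) to 9846 cells (28 dpi vehicle) and 35694246 UMIs (7 dpi vehicle), with a median of 2268.5 to 5127 UMIs per cell. The cluster numbers of the authors were named from marker genes, with "-like" added. Of the markers, Sall1 was highest in the ependymal-like cluster, Arg1 in the monocyte-like cluster and Ly6c2, Chil3 and Mbp in the neutrophil-like cluster, so those 5 did not support the names they were listed for. A cluster led by Dcn got no cell type name, and the T cell-like cluster also held natural killer cell genes such as Nkg7. MDM stands for monocyte-derived macrophage. Between libraries, 44 barcodes (88 cells) were shared, and leaving these cells out kept the count of members past 1.5-fold in each of the 13 comparisons between conditions with such a count. Levels are given as CPM, the UMIs of a gene per 1000000 UMIs of all cells of a cluster in a library, and 66 cluster and library pairs with at least 20 cells were used. Intervals are exact 95% intervals and cover counting error only.

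The T cell-like cluster had the highest summed level of the 10 genes in 5 of 6 libraries. Its summed CPM ran from 6241.8 at 7 dpi vehicle to 9549.5 in sham vehicle, with a median of 7737.1. In the remaining library, 28 dpi PLX5622, the microglia-like cluster was first with 7533.9 CPM and the T cell-like cluster second with 7175.3 CPM. Lymphoid and myeloid clusters followed with overlapping ranges: MDM-like cells ran from 4706.6 to 9105.9 CPM, microglia-like cells from 4849.3 to 7533.9 CPM, monocyte-like cells from 4713.9 to 6991.6 CPM and B cell-like cells from 4440.2 to 6702.0 CPM. These neighbours did not differ beyond the spread over libraries. Endothelial-like cells held 3543.9 to 4422.4 CPM. Clusters of neural origin had the lowest medians, with 602.4 to 3407.4 CPM in astrocyte-like, 525.5 to 1608.2 CPM in oligodendrocyte lineage-like and 360.1 to 1470.0 CPM in ependymal-like cells. In the vehicle injury libraries astrocyte-like cells were not lowest, at 2993 and 3407 CPM at 7 and 28 dpi, above the Dcn cluster at 2425 and 2359 CPM. H2-K1, H2-D1 and B2m dominate such a sum; when each gene counted alike, by the mean of log2(CPM + 10), the T cell-like cluster was first in 6 of 6 libraries and the monocyte-like cluster second in all 5 libraries that had it.

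**Figure D1:**
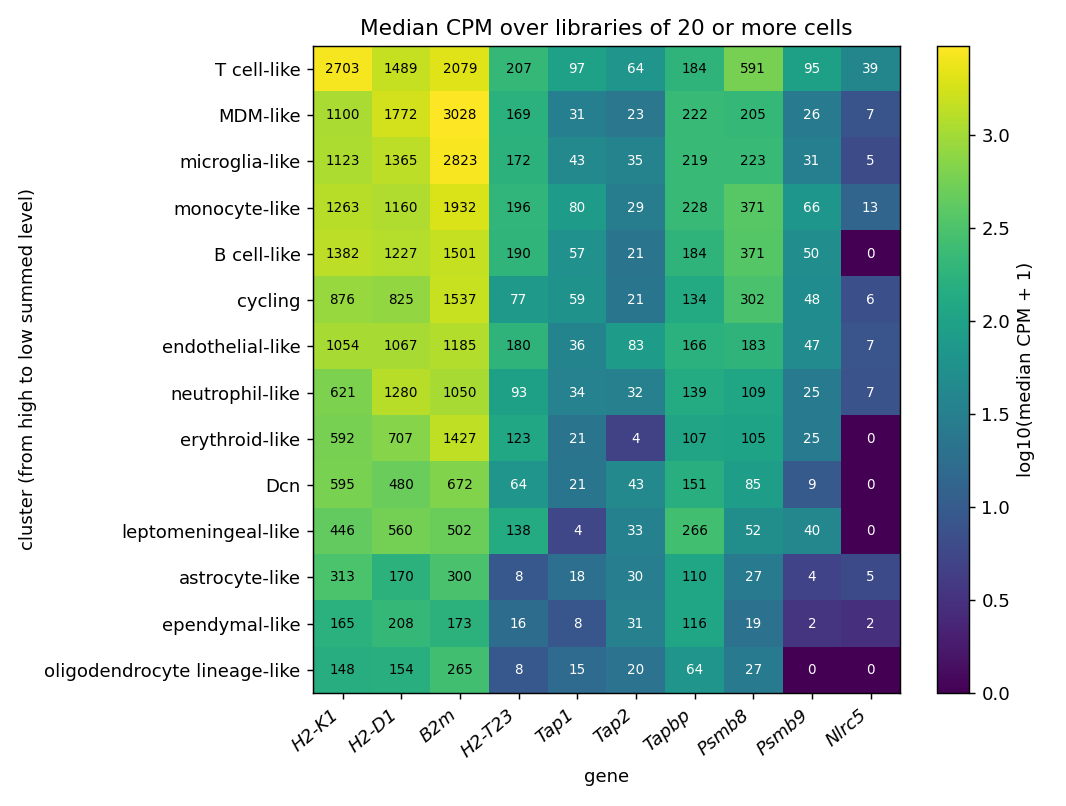
Heat map of the median CPM over libraries of each of the 10 genes (columns) in each of the 14 clusters (rows, ordered by the median summed level), with the colour on a log scale. T cell-like, MDM-like, microglia-like and monocyte-like cells are at the top; astrocyte-like, ependymal-like and oligodendrocyte lineage-like cells are at the bottom, where the medians of Psmb9 and Nlrc5 are at most 5.1 CPM and those of H2-T23 at most 16.2 CPM.

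H2-K1, a classical heavy chain, was highest in T cell-like cells in every library. Its level there was 3668 CPM in sham vehicle, 2208 CPM at 7 dpi vehicle, 2543 CPM at 28 dpi vehicle, 3487 CPM in sham PLX5622, 2864 CPM at 7 dpi PLX5622 and 2377 CPM at 28 dpi PLX5622, so both sham libraries were above all 4 injury libraries. T cell markers of the cluster differed too. In the same order Cd3e had 338, 189, 288, 560, 411 and 489 CPM, and Ccl5 had 6191, 3183, 3485, 5786, 4866 and 6020 CPM. The part of this in H2-K1 was not tested. In microglia-like cells the 6 libraries in the same order had 1134, 993, 1231, 953, 1148 and 1112 CPM, a range that does not meet that of the T cells. Endothelial-like cells, which line blood vessels, were as even, at 1145, 1005, 1104, 1108, 935 and 955 CPM. Ependymal-like cells, which line the central canal, had 105 to 393 CPM.

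H2-D1, the other classical heavy chain, had a different order. MDM-like cells held the highest median, 1772.4 CPM, with 2599.8 CPM in sham vehicle, 1286.6 CPM at 7 dpi vehicle, 1202.8 CPM at 28 dpi vehicle, 2357.4 CPM at 7 dpi PLX5622 and 1772.4 CPM at 28 dpi PLX5622 (sham PLX5622 had fewer than 20 MDM-like cells). T cell-like cells ranged from 1351.0 to 2296.5 CPM and overlapped with them. The counts of these genes share an uncertainty, since H2-K1, H2-D1 and the H2-Q genes are nearly identical over long stretches and reads could have been assigned to the wrong one or dropped.

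The UMI ratio of H2-D1 to H2-K1 separated the clusters. It is read only between clusters, since UMIs do not compare the levels of different genes. In T cell-like cells it was narrow, from 0.54 to 0.64 in 6 libraries with a median of 0.60. MDM-like cells ran from 1.17 to 1.75 and neutrophil-like cells from 1.50 to 3.88 in 4 libraries, so all of these libraries were above all T cell-like libraries. Microglia-like cells lay between, at 1.16 [1.10, 1.22], 0.93 [0.90, 0.96] and 1.04 [1.01, 1.06] in sham, 7 dpi and 28 dpi vehicle, and at 1.52 [1.22, 1.90], 1.23 [1.09, 1.40] and 1.37 [1.22, 1.55] under PLX5622. At each time the PLX5622 library had the higher ratio in microglia-like cells. Sham astrocyte-like cells had the lowest ratios of all, 0.20 [0.15, 0.27] under vehicle and 0.16 [0.10, 0.24] under PLX5622, where H2-K1 had 269 and 165 UMIs against 55 and 26 UMIs of H2-D1.

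B2m, the light chain shared by all class I molecules, was highest in microglia-like and MDM-like cells. Microglia-like cells had 2396 CPM in sham vehicle, 2360 CPM at 7 dpi vehicle, 2928 CPM at 28 dpi vehicle, 2718 CPM in sham PLX5622, 3381 CPM at 7 dpi PLX5622 and 4102 CPM at 28 dpi PLX5622, the last being the highest of all 66 pairs. T cell-like cells had 1835 to 2458 CPM. The lowest B2m was in sham vehicle ependymal-like cells, with 10 UMIs or 25.4 CPM. The UMI ratio of B2m to H2-K1 was 0.53 to 0.97 in T cell-like cells. It was higher in every library of microglia-like cells, at 2.11 to 3.69, and of MDM-like cells, at 1.68 to 3.05. Several other clusters overlapped the T cell range, such as B cell-like (0.65 to 1.38) and endothelial-like cells (0.95 to 1.40).

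**Figure D2:**
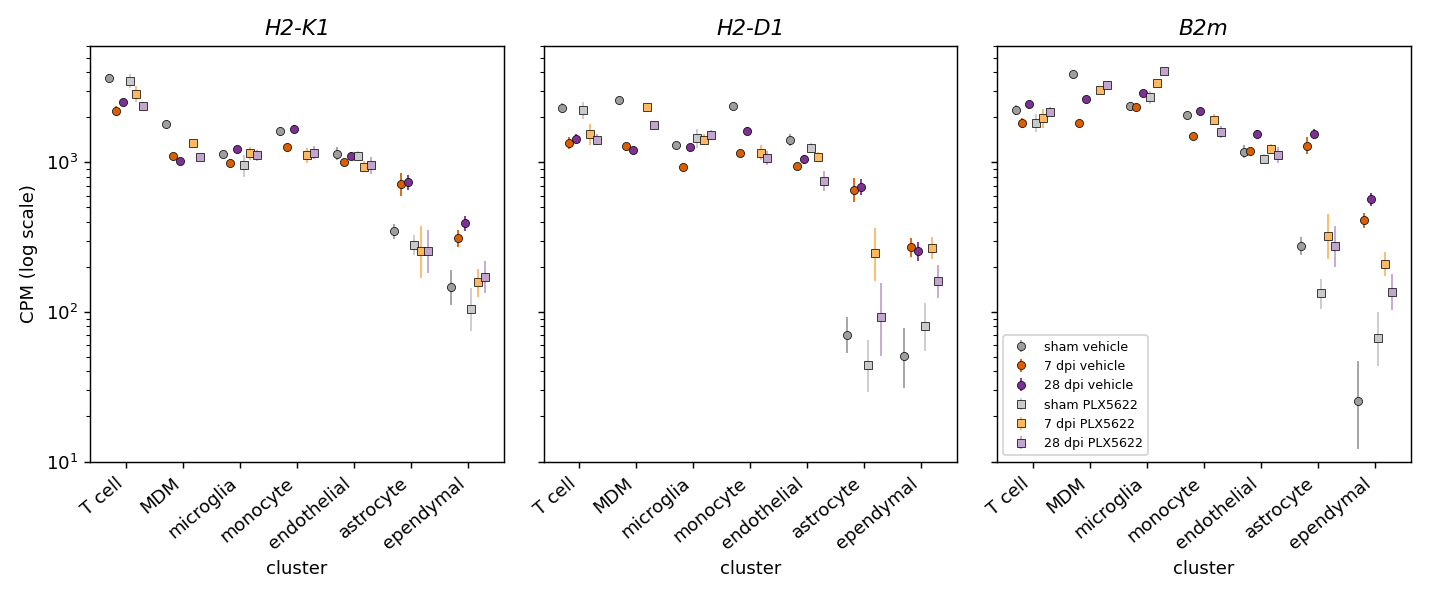
CPM on a log axis of H2-K1, H2-D1 and B2m in 7 clusters, with 1 point per library and exact 95% Poisson intervals that cover counting error only. H2-K1 is highest in the T cell-like cluster, between 2208 and 3668 CPM, B2m is highest in microglia-like and MDM-like cells, and astrocyte-like and ependymal-like cells are higher in the 7 and 28 dpi vehicle libraries than in the others, except that H2-D1 of ependymal-like cells is about as high at 7 dpi PLX5622.

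H2-T23 encodes a nonclassical heavy chain that shows signal peptides of other class I chains to the Klrd1 and Klrc1 receptor of natural killer and T cells. Its highest level was 294.7 CPM, in T cell-like cells of sham PLX5622, and 4 of the 66 pairs had no UMI of it. T cell-like cells had 277 CPM in sham vehicle, 91.9 CPM at 7 dpi vehicle, 194 CPM at 28 dpi vehicle, 295 CPM in sham PLX5622, 195 CPM at 7 dpi PLX5622 and 219 CPM at 28 dpi PLX5622. The 7 dpi vehicle library was thus the lowest of the 6. Median levels in monocyte-like, B cell-like, endothelial-like, microglia-like and MDM-like cells were 196, 190, 180, 172 and 169 CPM, while astrocyte-like and oligodendrocyte lineage-like cells had medians of 8.1 and 8.2 CPM.

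Tap1 and Tap2, the paired subunits of the peptide transporter, did not share a pattern over clusters. Tap1 was highest in T cell-like cells (median 97.1 CPM, range 66.2 to 144 CPM) and monocyte-like cells (median 80.2 CPM), and it was lower in endothelial-like cells (median 35.7 CPM, range 27.2 to 38.9 CPM). Tap2 had its highest median in endothelial-like cells, with 104, 36.0, 62.0, 91.8, 88.5 and 77.4 CPM in sham, 7 dpi and 28 dpi vehicle and then the PLX5622 libraries in the same order, and 7 dpi vehicle was again the lowest library. Tap2 also remained at a median of 30.3 CPM in astrocyte-like and 31.3 CPM in ependymal-like cells, close to the 34.5 CPM of microglia-like cells. Over the 66 pairs, the Pearson correlation of log2(CPM + 10) with the mean of the other 9 genes was 0.83 for Tap1 and 0.28 for Tap2, the lowest of the 10.

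Tapbp, the loading factor that bridges transporter and heavy chain, was the most even member. Its medians ran from 64.1 CPM in oligodendrocyte lineage-like cells to 265.8 CPM in the leptomeningeal-like cluster, whose name rests on 4 markers of which 2 were highest elsewhere. T cell-like cells (184.0 CPM), MDM-like cells (221.6 CPM), microglia-like cells (218.6 CPM) and monocyte-like cells (227.8 CPM) lay close together. Astrocyte-like and ependymal-like cells held 109.9 and 115.6 CPM, so that Tapbp differed less between glia and immune cells than the heavy chains did.

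The immunoproteasome subunits Psmb8 and Psmb9 followed the lymphoid and monocyte clusters. Psmb8 in T cell-like cells was 637, 354 and 514 CPM in sham, 7 dpi and 28 dpi vehicle and 629, 688 and 552 CPM under PLX5622. Monocyte-like and B cell-like cells had medians of 371 CPM each, microglia-like cells 223 CPM, and astrocyte-like, ependymal-like and oligodendrocyte lineage-like cells 27.5, 19.3 and 27.2 CPM. Psmb9 had the same leading cluster, at 72.0 to 147 CPM, and no UMI in 9 of the 66 pairs. Psmb8 takes the place of the standard subunit Psmb5 in the assembled proteasome, and the UMI ratio of Psmb8 to Psmb5 was 2.56 to 5.58 in T cell-like cells, 1.40 to 2.74 in microglia-like cells and 1.27 to 2.12 in MDM-like cells. All T cell-like and microglia-like libraries were above all astrocyte-like libraries (0.09 to 0.73) and ependymal-like libraries (0.05 to 0.38). Psmb9 and Psmb10 take the places of Psmb6 and Psmb7. The ratio of Psmb9 to Psmb6 had medians of 0.60 in T cell-like, 0.23 in microglia-like, 0.03 in astrocyte-like and 0.01 in ependymal-like cells, and that of Psmb10 to Psmb7 medians of 4.82, 2.08, 0.83 and 0.16 in the same clusters.

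Nlrc5, the transactivator of class I genes, was the scarcest member, with no UMI in 20 of the 66 pairs. T cell-like cells had the highest median, 38.9 CPM. They had 39.6, 43.2 and 54.5 CPM in sham, 7 dpi and 28 dpi vehicle and 9.8, 20.5 and 38.2 CPM under PLX5622. The sham and 7 dpi values under PLX5622 rest on 1 and 2 UMIs, too few to read a difference from vehicle. No other cluster had a median above 12.8 CPM, that of monocyte-like cells. For shares of cells, those under 1000 UMIs were left out and the others thinned to 1000 UMIs. A UMI of Nlrc5 was then found in 4.1% [2.6, 5.9] of T cell-like cells (unthinned 9.4%). It was found in 0 of 136 erythroid-like cells, for which the exact upper bound was 2.7% (unthinned 0.38%).

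Shares of cells were set beside those of erythroid-like cells, which should hold little of the pathway but had a median of 1017.5 UMIs and 2756 to 58637 CPM of 12 myeloid genes, so that they are no clean blank. Thinning kept only cells of at least 1000 UMIs. These were 615 of 764 T cell-like, 136 of 262 erythroid-like, 630 of 974 astrocyte-like and 622 of 707 ependymal-like cells, so thinned and unthinned shares cover different cells. After thinning, 90.6% of T cell-like cells (median depth 1692.5 UMIs) had a UMI of H2-K1. The share was 36.0% of erythroid-like, 29.5% of astrocyte-like and 19.5% of ependymal-like cells. The unthinned shares were 96.9%, 34.7%, 42.2% and 41.9%. B2m was found in 89.9% of microglia-like and 88.8% of T cell-like cells, 62.5% of erythroid-like cells, 26.7% of astrocyte-like cells and 18.3% of ependymal-like cells, with unthinned shares of 93.7%, 92.4%, 51.5%, 36.1% and 32.2%. The pooled thinned shares of astrocyte-like and ependymal-like cells lay below those of erythroid-like cells for both genes, with overlapping intervals for H2-K1 of astrocyte-like cells, 29.5% [26.0, 33.3] against 36.0% [28.0, 44.7]. In sham vehicle alone the order for H2-K1 was the other way, 32.9% [26.8, 39.4] against 15.8% [6.0, 31.2]. These shares therefore do not separate expression from free RNA in the glia. For Psmb8 the T cell-like share was 40.2% and the erythroid-like share 10.3% (unthinned 60.7% and 17.9%).

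Over the 66 pairs, Psmb8 (0.94), H2-K1 (0.93) and H2-D1 (0.91) had the highest correlations with the mean of the other 9 members, and Tapbp (0.67) and Nlrc5 (0.53) were low beside Tap2. Among 10508 genes outside the lists that reached 50 CPM, those most like the mean of the 10 members were Casp8 (0.93), Sp110 (0.93), Fau (0.87), Srgn (0.87) and Trim30a (0.87). These correlations describe clusters that share libraries, depth and base composition, and they carry no p-value.

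The next comparisons are ratios of CPM between 2 libraries within a cluster, on the log2 scale with the interval in brackets. A gene counted as higher or lower past 1.5-fold (0.58 on the log2 scale), and a gene entered when its UMIs in the 2 libraries summed to 100 or more. The scale itself moved: in microglia-like cells the median of all genes was -0.54 at 7 dpi and -0.44 at 28 dpi against sham vehicle, and in MDM-like cells -0.25 at both times. Members are therefore given beside that shift.

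In microglia-like cells, the resident macrophages of the cord (674 sham, 2154 7 dpi and 3974 28 dpi vehicle cells), the transporter and H2-T23 had lower CPM at 7 dpi than in sham, while the CPM of Psmb8, B2m and Tapbp differed little. Of 9 members, 3 were at least 1.5-fold lower, Tap2, H2-T23 and Tap1, where 47.3% of all genes were. That reading depends on the scale: with TMM 2 of 9 were, against 15.5% of all genes, so the members' share was below the background on CPM and above it with TMM. Tap2 had 79.7 CPM in sham and 15.8 CPM at 7 dpi, a log2 ratio of -2.33 [-2.69, -1.97]. H2-T23 had 204.2 and 78.2 CPM, a ratio of -1.38 [-1.57, -1.20], and Tap1 had 69.2 and 43.1 CPM, a ratio of -0.68 [-0.97, -0.39]. With edgeR's TMM factors these were -1.78, -0.84 and -0.13, so that Tap1 was then near the rest of the genes. H2-D1 was at 1313.0 and 924.0 CPM (-0.51 [-0.57, -0.44]), H2-K1 at 1133.6 and 993.3 CPM (-0.19 [-0.26, -0.12]), B2m at 2396.0 and 2360.3 CPM (-0.02 [-0.07, 0.02]) and Psmb9 at 32.9 and 22.8 CPM (-0.53 [-0.95, -0.10]), and the direction of all 4 flipped with TMM, to 0.04, 0.36, 0.53 and 0.02. Psmb8 and Tapbp were at 0.05 each, and at 0.60 each with TMM, which is past 1.5-fold. In all, 6 of the 9 members lay above the median gene.

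At 28 dpi, 2 of 9 members in microglia-like cells were at least 1.5-fold below sham, against 38.3% of all genes. These were Tap2, at 26.5 CPM (-1.59 [-1.89, -1.29]), and Tap1, at 42.6 CPM (-0.70 [-0.98, -0.41], or -0.27 with TMM). H2-T23 stood at 136.9 CPM, between its sham and 7 dpi levels, with a ratio to sham of -0.58 [-0.74, -0.41], or -0.15 with TMM. B2m was at 2927.8 CPM (0.29 [0.25, 0.33]) and Psmb8 at 243.6 CPM (0.31 [0.15, 0.46]), and both were further up, at 0.72 and 0.73, with TMM. H2-D1 (-0.04) and Psmb9 (-0.30) flipped to 0.39 and 0.13. Microglia markers moved with these values, since P2ry12 had 2410 CPM in sham, 351 CPM at 7 dpi and 510 CPM at 28 dpi. The part of that shift in the members' ratios was not tested.

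MDM-like cells, which had only 185 cells in sham vehicle, held less of most members after injury than the MDM-like cells of the sham cord. At 7 dpi, 6 of 10 members were at least 1.5-fold lower, against 28.8% of all genes, and 9 of 10 were below the median gene. H2-D1 had 2599.8 CPM in sham and 1286.6 CPM at 7 dpi (-1.01 [-1.06, -0.96]), and B2m had 3912.0 and 1842.9 CPM (-1.09 [-1.13, -1.04]). The classical chain H2-K1 was less far apart, at 1808.6 and 1099.7 CPM (-0.72 [-0.78, -0.66]). The largest differences were those of Tap2, 44.4 and 12.0 CPM (-1.89 [-2.29, -1.46]), H2-T23, 174.2 and 73.0 CPM (-1.26 [-1.45, -1.05]), and Tap1, 66.3 and 28.4 CPM (-1.22 [-1.54, -0.89]). Tapbp (-0.50), Psmb8 (-0.43) and Psmb9 (-0.40) were within 1.5-fold, and Nlrc5, at -0.24 [-1.17, 0.86] on 10 sham UMIs, flipped to 0.06 with TMM while the other 9 kept their direction.

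At 28 dpi, 4 of 10 members in MDM-like cells were at least 1.5-fold below sham, against 22.1% of all genes. H2-D1 was at 1202.8 CPM (-1.11 [-1.16, -1.06]), H2-K1 at 1025.3 CPM (-0.82 [-0.88, -0.76]), Tap1 at 31.2 CPM (-1.09 [-1.41, -0.75]) and Tap2 at 22.9 CPM (-0.96 [-1.35, -0.54]). B2m stood at 2634.6 CPM (-0.57 [-0.61, -0.53]) and H2-T23 at 121.4 CPM (-0.52 [-0.71, -0.32]), both between the sham and 7 dpi levels, while H2-D1 and H2-K1 were not. Tapbp (-0.04), Psmb8 (-0.11) and Psmb9 (-0.27) flipped to 0.24, 0.17 and 0.02 with TMM, and Nlrc5 was at 0.18. The cluster differed in its own markers over the same libraries, with Gpnmb at 2622, 7783 and 2591 CPM and Spp1 at 4929, 20649 and 15027 CPM in sham, 7 dpi and 28 dpi vehicle, and the part of this was not tested.

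**Figure D3:**
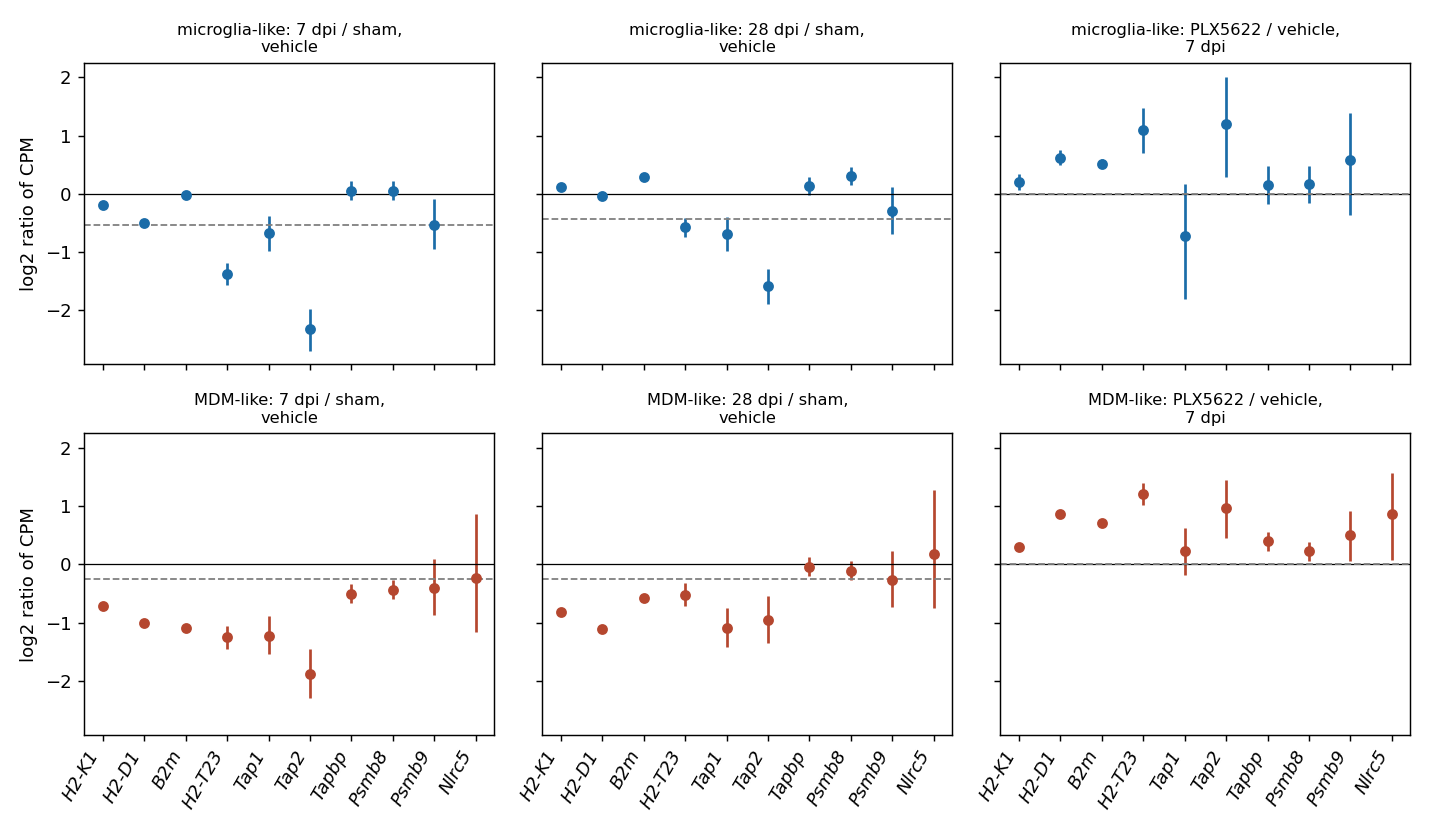
Log2 ratios of CPM of the members in microglia-like and MDM-like cells for 7 dpi over sham and 28 dpi over sham under vehicle and for PLX5622 over vehicle at 7 dpi, with exact 95% intervals for counting error and the median of all genes as a dashed line. In microglia-like cells H2-T23 and Tap2 lie below the dashed line at 7 dpi while H2-K1 and B2m lie above it although below 0, and with TMM factors H2-D1, H2-K1, B2m and Psmb9 move above 0. All 10 members of MDM-like cells are above 0 for PLX5622 over vehicle.

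Under PLX5622 at 7 dpi, the few microglia-like cells left (61 cells) had more H2-T23, Tap2 and H2-D1 than those of the vehicle library. These 3 of 9 members were at least 1.5-fold higher, against 9.74% of all genes, and the median of all genes was -0.01. The PLX5622 cells were deeper, with a median of 6448 against 2902.5 UMIs. With cells thinned to 1000 UMIs, 3 of 9 members were higher against 37.2% of all genes. A gene left without UMIs in the thinned PLX5622 cells entered at the floor of 3 UMIs and could then count as higher. The thinned shares therefore cannot show whether the members stood above the background. H2-T23 had 166.9 CPM against 78.2 CPM (1.09 [0.70, 1.47]), Tap2 had 36.5 against 15.8 CPM on 14 and 107 UMIs (1.20 [0.29, 2.01]), and H2-D1 had 1416.5 against 924.0 CPM (0.62 [0.49, 0.74], or 0.52 with TMM, which is within 1.5-fold). B2m was at 3380.7 against 2360.3 CPM (0.52 [0.44, 0.60]) and H2-K1 at 1147.8 against 993.3 CPM (0.21 [0.07, 0.35]). Tap1 was the member on the other side, at -0.72 [-1.80, 0.18] on 10 UMIs. At 28 dpi (126 cells), B2m had 4102.0 against 2927.8 CPM (0.49 [0.42, 0.56]) and Psmb9 62.8 against 26.7 CPM (1.23 [0.60, 1.81]), while H2-K1 was at -0.15 [-0.28, -0.01].

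MDM-like cells of the 7 dpi PLX5622 library (100 cells) had all 10 members above the vehicle library, and 5 of 10 at least 1.5-fold higher, against 7.2% of all genes. Their median depth was 15945 against 5777 UMIs, and after thinning 7 of 10 were higher against 40.05% of all genes. Here too, a gene left without UMIs in the thinned PLX5622 cells entered at the floor of 3 UMIs and could count as higher. Both thinned shares can hold such genes, so they cannot show the part of depth or whether the members stood above the background. H2-D1 had 2357.4 against 1286.6 CPM (0.87 [0.83, 0.92]), B2m 3028.4 against 1842.9 CPM (0.72 [0.67, 0.76]) and H2-T23 168.9 against 73.0 CPM (1.21 [1.03, 1.39]). Tap2, at 23.5 against 12.0 CPM (0.97 [0.45, 1.45]), and Nlrc5, at 10.9 against 6.0 CPM on 19 and 119 UMIs (0.86 [0.08, 1.57]), were the others. H2-K1, at 1349.6 against 1099.7 CPM (0.30 [0.23, 0.36]), moved less than H2-D1, and their intervals did not overlap. At 28 dpi (161 cells) 1 of 10 members, H2-T23, was at least 1.5-fold higher, against 8.66% of all genes, at 183.4 against 121.4 CPM (0.60 [0.39, 0.79], or 0.53 with TMM). No member was with TMM, DESeq2 size factors, cells weighted alike, at least 500 genes per cell or the median of all genes taken off. H2-D1 was just under that line, at 1772.4 against 1202.8 CPM (0.56 [0.50, 0.62]), H2-K1 was at 0.08 [-0.01, 0.15], and Nlrc5 was past 1.5-fold on the lower side, on 5 and 111 UMIs (-1.04 [-2.69, 0.22]). The myeloid markers of the cluster differed here too, with Spp1 at 46905 CPM in the 7 dpi PLX5622 library, and this was not tested. These comparisons and those with sham share the 7 dpi vehicle library, so that they are not independent of each other.

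H2-T23 was low in the 7 dpi vehicle library in every cluster in which it could be compared. Against sham vehicle it was below 0 in 6 of 6 clusters and past 1.5-fold in 5, from -1.59 [-2.22, -0.99] in T cell-like cells to -0.38 in the cycling cluster, and from -1.30 to -0.13 with TMM. Of 693 genes with enough UMIs in all 6 clusters, 29 (4.18%) were as widely lower. Monocyte-like cells had 195.3 CPM in sham and 101.4 CPM at 7 dpi, and endothelial-like cells 158.5 and 87.4 CPM. From 7 to 28 dpi under vehicle it was higher in 7 of 7 clusters, by 0.38 to 1.08 and past 1.5-fold in 6, which 6 of 1059 genes (0.567%) matched. PLX5622 over vehicle at 7 dpi was above 1.5-fold in 4 of 4 clusters, with microglia-like 1.09, MDM-like 1.21, endothelial-like 1.21 (201.8 against 87.4 CPM) and monocyte-like 1.10 (216.8 against 101.4 CPM), which 8 of 2272 genes (0.352%) matched. The interval of each of these 4 ratios was above 0.58. At 28 dpi PLX5622 was above vehicle in 6 of 6 clusters, by 0.18 to 0.65. The shares of genes that matched were counted for H2-T23 alone among the members, in clusters where it had enough UMIs, and they are not tests. All but the comparison of PLX5622 with vehicle at 28 dpi rest on the 7 dpi vehicle library, whose condition and library cannot be told apart. That library had the most UMIs in all but not per cell, with a median of 1510 UMIs in T cell-like cells against 3669 in sham vehicle. The T cell marker Cd3e was also lower in those T cell-like cells, at 189 against 338 CPM, and the part of this was not tested.

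**Figure D4:**
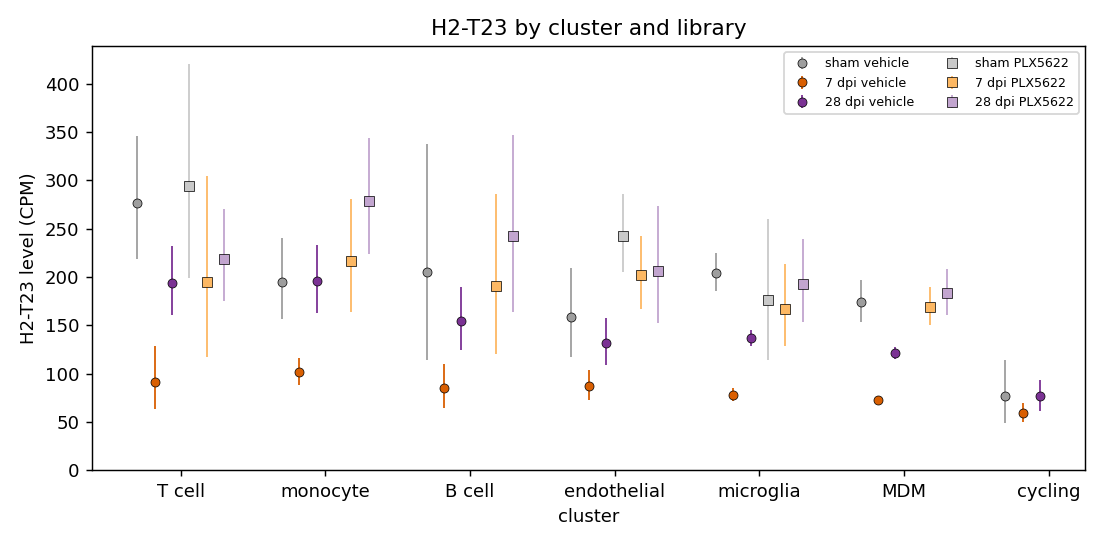
CPM of H2-T23 in T cell-like, monocyte-like, B cell-like, endothelial-like, microglia-like, MDM-like and cycling cells, with 1 point per library and exact 95% Poisson intervals for counting error. The 7 dpi vehicle library is the lowest in each of these clusters, at 58.8 to 101.4 CPM.

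Tap2 shared part of this pattern. At 7 dpi under vehicle it was the lowest of the libraries in microglia-like, MDM-like, endothelial-like and T cell-like cells, and PLX5622 over vehicle at 7 dpi was above 1.5-fold in 3 of 3 clusters, by 0.97 to 1.30, with 88.5 against 36.0 CPM in endothelial-like cells (1.30 [0.71, 1.89]). H2-D1 shared it in fewer clusters: PLX5622 over vehicle at 7 dpi was 0.87 in MDM-like and 0.62 in microglia-like cells (0.52 with TMM). It was 0.21 in endothelial-like and 0.01 in monocyte-like cells. H2-K1 was within 1.5-fold in all of these, at 0.30, 0.21, -0.10 and -0.18 in the same order. With TMM the 0.01 became -0.10, so the direction of H2-D1 in monocyte-like cells is not set.

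Astrocyte-like cells had more H2-D1, H2-K1 and B2m in the injury libraries under vehicle than in sham, and so did the myeloid RNA in the same cells. H2-D1 had 70.5 CPM in sham vehicle, 653 CPM at 7 dpi vehicle, 686 CPM at 28 dpi vehicle, 44.4 CPM in sham PLX5622, 248 CPM at 7 dpi PLX5622 and 92.4 CPM at 28 dpi PLX5622. B2m had 277, 1295, 1553, 133, 324 and 277 CPM in that order, and H2-K1 had 345, 713, 734, 282, 257 and 257 CPM. For these genes the vehicle injury libraries stood above the other 4. The 12 myeloid genes, such as the complement genes C1qa, C1qb and C1qc and the receptor genes Csf1r and Cx3cr1, summed to 3059, 34655, 33315, 824, 4142 and 2863 CPM in these astrocyte-like cells, with the same libraries high, and all 12 had UMIs in 5 of the libraries and 10 in sham PLX5622.

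Against sham vehicle at 7 dpi, 3 of 3 members with enough UMIs were at least 1.5-fold higher in astrocyte-like cells, against 21% of all genes. The log2 ratios were 3.21 [2.74, 3.70] for H2-D1, 2.23 [1.95, 2.50] for B2m and 1.05 [0.73, 1.35] for H2-K1. With cells thinned to 1000 UMIs, and those under 1000 UMIs left out, H2-K1 turned to -0.34, leaving 2 of 3. At 28 dpi 4 of 4 were, against 18.9% of all genes: H2-D1 at 3.28 [2.86, 3.73], B2m at 2.49 [2.26, 2.72], Tapbp at 1.91 [1.32, 2.52], from 47.5 to 178.7 CPM, and H2-K1 at 1.09 [0.85, 1.33]. The median of all genes was -0.44 and -0.35 in these comparisons, on the other side of 0. PLX5622 over vehicle at 28 dpi was at least 1.5-fold lower in 3 of 3, against 30.9% of all genes, at -2.89 [-3.78, -2.12] for H2-D1, -2.49 [-2.97, -2.04] for B2m and -1.51 [-2.03, -1.03] for H2-K1. Without the cells that had 3 or more UMIs of the 12 myeloid genes, B2m was at -0.49 [-1.57, 0.58] and H2-K1 at -0.40 [-1.40, 0.60], both within 1.5-fold, and H2-D1 was at -1.99 [-5.33, 0.50] on 2 and 6 UMIs. The UMI ratio of H2-D1 to H2-K1 in astrocyte-like cells was 0.20 in sham and 0.92 and 0.93 at 7 and 28 dpi vehicle, against 0.93 and 1.04 in microglia-like cells of those injury libraries. Under PLX5622 it was 0.16 in sham, 0.96 [0.54, 1.71] at 7 dpi on 26 and 27 UMIs, and 0.36 at 28 dpi. The myeloid genes summed to 4142 CPM in the 7 dpi PLX5622 library, and a link of the ratio to these genes was not tested.

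Without the astrocyte-like cells that had 3 or more UMIs of the 12 myeloid genes, most of the difference was gone for H2-K1. At 28 dpi 57 of 245 cells and in sham 184 of 310 cells were left. H2-K1 was then at 335.5 against 310.7 CPM (0.11 [-0.68, 0.83]), B2m at 300.2 against 134.0 CPM (1.16 [0.26, 2.00]) and H2-D1 at 106.0 against 42.6 CPM on 6 and 14 UMIs (1.31 [-0.35, 2.78]). The cells left still held 1377 against 436 CPM of the myeloid genes. At 7 dpi only 11 cells were left, too few for a value.

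Ependymal-like cells showed the same set of libraries. B2m had 25.4, 411, 565, 67.5, 210 and 137 CPM in sham, 7 dpi and 28 dpi vehicle and then the PLX5622 libraries in the same order, H2-D1 had 50.7, 271, 255, 81.0, 269 and 162 CPM, and H2-K1 had 147, 310, 393, 105, 158 and 172 CPM. Vehicle injury libraries were highest for B2m and H2-K1, while H2-D1 was as high at 7 dpi PLX5622. Their myeloid genes summed to 340, 11234, 12680, 780, 3535 and 2236 CPM. At 7 dpi 4 of 4 members were at least 1.5-fold above sham vehicle, against 10.5% of all genes, with B2m at 4.02 [3.12, 5.09], H2-D1 at 2.42 [1.75, 3.16], H2-K1 at 1.08 [0.65, 1.52] and Tapbp at 0.65 [0.03, 1.31], which turned to -0.15 [-1.91, 1.30] without the cells that had 3 or more myeloid UMIs. At 28 dpi 4 of 4 were again, against 9.46% of all genes, with B2m at 4.48 [3.59, 5.55]. PLX5622 over vehicle at 28 dpi was at least 1.5-fold lower for 3 of 4, against 7.08% of all genes: B2m at -2.05 [-2.49, -1.64], H2-K1 at -1.19 [-1.59, -0.81] and H2-D1 at -0.65 [-1.08, -0.24], a direction that turned to 1.11 [-0.17, 2.52] without those cells. Without those cells, B2m at 28 dpi was 146.1 CPM against 25.1 CPM in sham (2.54 [1.04, 4.33], 72 and 56 cells), where the cells left still held 851 against 246 CPM of the myeloid genes, and the 7 dpi ratio of B2m rested on 3 and 5 UMIs.

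**Figure D5:**
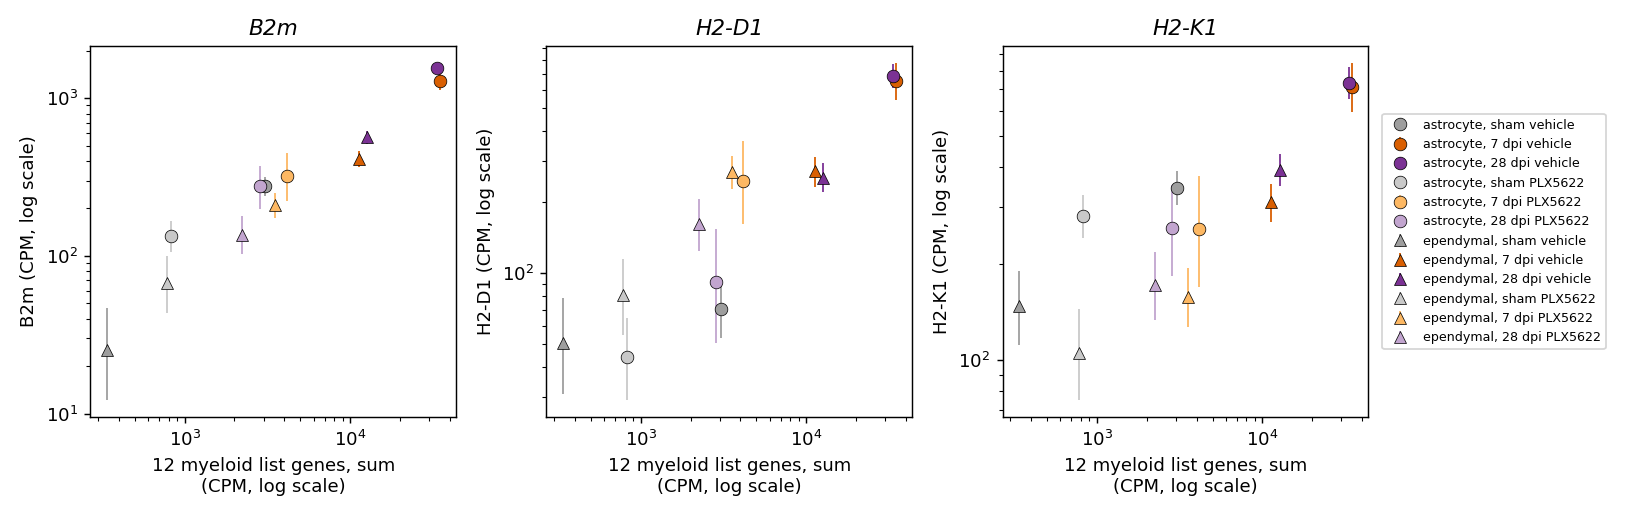
CPM of B2m, H2-D1 and H2-K1 in astrocyte-like (circles) and ependymal-like (triangles) cells against the summed CPM of 12 myeloid genes in the same cells, on log axes, with 1 point per library. The 7 and 28 dpi vehicle libraries lie far right, at 11234 to 34655 CPM of myeloid genes, and have the highest B2m and H2-K1 of each cluster.

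The myeloid genes moved in other clusters as well, at 4989, 29785 and 27295 CPM in T cell-like and 2100, 14336 and 17955 CPM in endothelial-like cells of sham, 7 dpi and 28 dpi vehicle. Of all cells, 57.2%, 84.8% and 81.3% were in myeloid clusters in these libraries, against 14.2%, 42.1% and 42.3% under PLX5622. In endothelial-like cells with under 3 UMIs of the myeloid genes, which still held 678 CPM of them at 7 dpi and 418 CPM in sham, H2-D1 was lower at 7 dpi than in sham, at 794.5 against 1469.0 CPM (-0.89 [-1.22, -0.56]), and H2-K1 was at -0.09 [-0.41, 0.23], so the classical chains were uneven in those cells too. Over all endothelial-like cells they were at -0.58 [-0.74, -0.42] and -0.19 [-0.36, -0.02], and the latter flipped to 0.02 with TMM.

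Other genes of the pathway were taken from lists fixed by name. Of 10 further class I heavy chains, 6 were in the table, and H2-Q4 and H2-M3 had enough UMIs in microglia-like cells at 7 dpi. Both were at least 1.5-fold lower than in sham, where 47.3% of all genes were, at 30.2 against 76.3 CPM (-1.34 [-1.64, -1.03]) and 35.4 against 98.3 CPM (-1.47 [-1.75, -1.20]). In MDM-like cells 3 of 3 were lower, with H2-Q4 at -2.68, H2-M3 at -1.66 and H2-K2 at -1.24, where 28.8% of all genes were lower. At 28 dpi 3 of 3 were lower in both clusters, against 38.3% and 22.1% of all genes, and with TMM none in microglia-like and 2 in MDM-like cells. Under PLX5622 at 7 dpi H2-Q4 was higher than in vehicle in microglia-like (0.99) and MDM-like cells (0.74), like H2-T23. The median of these chains was thus lower than that of all genes at 7 dpi, at -1.41 in microglia-like and -1.66 in MDM-like cells.

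Of 8 other processing genes, 3 were at least 1.5-fold lower at 7 dpi in microglia-like cells, a smaller share than the 47.3% of all genes: Tapbpl, a peptide editor (-1.69), Erap1, which trims peptides (-1.28), and Pdia3, a loading-complex chaperone (-0.70, or -0.15 with TMM). In MDM-like cells 3 of 8 were lower too, against 28.8% of all genes, and 1 of 8 with TMM. None of the 8 was past 1.5-fold for PLX5622 over vehicle at 7 dpi in that cluster, nor any of the 6 with enough UMIs in microglia-like cells. Of the 3 standard proteasome subunits, Psmb6 was higher at 7 dpi in microglia-like cells (0.67), and none was past 1.5-fold on CPM in MDM-like cells. Of 8 regulators, 5 had enough UMIs in microglia-like cells at 7 dpi and 4 were lower: Ifngr1 and Ifngr2, the chains of the interferon gamma receptor (-2.07 and -0.95), Irf1, an interferon-induced factor (-1.32), and Rfxap, part of the complex that binds the X box (-0.92). Against the 47.3% of all genes this is 4 of 5, and with TMM 2 of 5, since Ifngr2 and Rfxap were then at -0.40 and -0.37. In MDM-like cells 4 of 7 were lower, with CPM and with TMM, against 28.8% of all genes, with Ifngr1 at 101 against 394 CPM (-1.97). The 5 lymphocyte genes that read class I (Cd8a, Cd8b1, Klrd1, Klrc1 and Klrc2) had too few UMIs in these clusters for a ratio. In T cell-like cells Klrd1 had 742, 189 and 269 CPM in sham, 7 dpi and 28 dpi vehicle and 521, 359 and 479 CPM under PLX5622, and Cd8b1 had 213 to 452 CPM, so that cells able to read class I were present in each library.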

How the data were processed

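Single-cell RNA-seq was measured in 6 libraries. The authors aligned and counted the reads with Cell Ranger 3.0.2 (named in the matrix headers) against mm10, filtered and clustered the cells with Seurat, and deposited the raw UMI count of each gene and cell with a cluster number per cell. The bulk samples of the series (14 of its 20) were not analysed here. The deposited count table matched the per-library matrices at every entry of the 10 genes.

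Cells were grouped by the deposited cluster number and library, UMIs were summed, and CPM was computed. Libraries held 2606149 to 35694246 UMIs. Poisson intervals for CPM, conditional binomial intervals for ratios and Clopper-Pearson intervals for shares were exact, at 95%. A gene without UMIs in 1 library of a pair was set to a floor of 3 UMIs there for its ratio. No ratio was given where both libraries had 3 or fewer. No paired or replicated test existed. For shares and for the thinned alternative, cells under 1000 UMIs were left out and the others were thinned to 1000 UMIs. Unthinned shares used all cells. The code was tested on simulated data. The sum of 12 myeloid genes was taken over the whole list, of which 1 gene is not reported here by itself. No further cell filter was applied, no doublet caller was run, and the sources used here do not say whether doublets were removed.

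The members and lists were chosen with earlier results of these data known. All 10 members are named throughout, genes of the lists by their list, the 3 members with the largest absolute ratio in each main comparison, and 5 further genes by Pearson correlation of log2(CPM + 10) over 66 pairs, among genes that reached 50 CPM. Alternatives were edgeR TMM factors, DESeq2 size factors, other UMI minimums, a 2-fold limit, cells weighted alike, thinning, at least 500 genes per cell, totals without ribosomal protein and haemoglobin genes, and leaving out cells with 3 or more myeloid UMIs. Factors were made in R 4.3.3 with edgeR 4.0.16 and DESeq2 1.42.0, and all other steps ran in Python 3.11.15 (SciPy 1.17.1, NumPy 2.4.6, matplotlib 3.10.9, pandas 2.3.3).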

Additional observations from a re-analysis of the deposited data

How the results depend on the processing

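No paired analysis was possible because each condition had 1 library, and no library could be left out. Of the counts, levels, ratios and shares that answer a comparison, 133 values under alternatives stayed close (for counts, within 1.5 times), 8 moved, 10 were counts that grew and 14 were counts that shrank. In microglia-like cells at 28 dpi against sham, the count of members at least 1.5-fold lower went from 2 to 1 with TMM, DESeq2 size factors, totals without ribosomal protein and haemoglobin genes, the median of all genes taken off, or a 2-fold limit. In MDM-like cells the 2-fold limit left 2 of 4 lower at 28 dpi and 1 of 5 higher for PLX5622 at 7 dpi. The 1 member higher for PLX5622 at 28 dpi went to 0 with TMM, DESeq2, cells weighted alike, at least 500 genes per cell, the median taken off, or the 2-fold limit. Fewer UMIs required meant more genes entered: in astrocyte-like cells the counts became 5 at 20 UMIs and 7 at 1 UMI (7 dpi), 7 and 8 (28 dpi) and 6 and 7 (PLX5622 at 28 dpi), and in ependymal-like cells 7 at 1 UMI at both times and 6 and 7 for PLX5622 at 28 dpi. Without cells with 3 or more myeloid UMIs, 1 of the 3 astrocyte-like members was past 1.5-fold for PLX5622 at 28 dpi, H2-D1 on 2 and 6 UMIs, and at 7 dpi against sham that alternative was not run since 11 cells were left. With cells weighted alike, summed CPM in sham vehicle was 11218.4 in T cell-like, 5910.8 in microglia-like, 8373.5 in MDM-like and 732.8 in astrocyte-like cells. Thinning put the H2-D1 to H2-K1 ratio of T cell-like cells at 28 dpi vehicle at 0.493. Unthinned shares were 96.9% (H2-K1, T cell-like), 42.2% (H2-K1, astrocyte-like) and 93.7% (B2m, microglia-like).

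Ratios of single genes stayed close under 536 alternatives and moved in 190, and in 7 a ratio past 1.5-fold turned direction. Turns of ratios within 1.5-fold under TMM are given beside those ratios. Thinning turned H2-K1 of astrocyte-like cells at 7 dpi to -0.34 and Tap1 of microglia-like cells for PLX5622 at 7 dpi to 0.46. Tap1 had 10 UMIs in those PLX5622 cells before thinning. Its thinned value thus rests on few UMIs or on the floor of 3 UMIs and sets no direction. Tapbp of ependymal-like cells at 7 dpi was -0.15 without cells with 3 or more myeloid UMIs. Nlrc5 of MDM-like cells for PLX5622 at 28 dpi was 0.096 with cells weighted alike. H2-D1 of ependymal-like cells for PLX5622 at 28 dpi was 0.058 with cells weighted alike, 1.05 thinned and 1.11 without cells with 3 or more myeloid UMIs. The cause was not tested. Taking off the median of all genes and leaving out cells with a barcode shared by 2 libraries were chosen after the data were seen. Depth limits Nlrc5, Psmb9, Tap1 and Tap2 most, and clusters of under 100 cells.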
